A study of Mus musculus with 8 samples.

Results

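The genes described here are 10 that mark scar-associated and lipid-associated macrophages, *Trem2*, *Tyrobp*, *Cd9*, *Cd63*, *Spp1*, *Gpnmb*, *Lgals3*, *Fabp4*, *Fabp5* and *Pparg*. They were taken by symbol from the deposited table of 55401 genes, in which each symbol had 1 row, and all 10 were among the 15202 genes that passed the filter on low values, at least 0.5 CPM (counts scaled to a common library total) in at least 1 library. Poly(A) RNA of hepatic macrophages had been sequenced in 8 libraries, 2 for each of 4 groups, to ask how cholesterol overload acts on macrophages of normal and of steatotic liver. The macrophages labelled normal came from wild-type mice on standard diet. Those labelled steatotic came from mice that lack the melanocortin-4 receptor (MC4R-KO mice), kept on a Western diet for 6 to 10 wk. Both strains were on a C57BL/6J background, and the ages of the animals for this isolation are not given in the sources used here. Diet and genotype therefore changed together and cannot be told apart. The cells had been pulled out of the non-parenchymal fraction with magnetic beads against F4/80, a surface protein of macrophages, and plated on collagen. Treatment lasted 24 h and was either vehicle (Veh) or 500 μg/ml cholesterol crystals (CC), solid particles of cholesterol that phagocytes engulf. The labels do not say whether the libraries of a group came from separate animals, so the p-values below measure the spread between libraries, which may be technical.

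Macrophages that have taken up lipid or dead fat-laden cells share a gene programme in fatty liver, adipose tissue, atherosclerotic plaque and the injured brain. At its centre is TREM2, a surface receptor for lipids and lipoproteins that has no signalling tail of its own and signals through the adaptor DAP12, the product of *Tyrobp*. The programme includes lysosomal and lipid-handling genes, secreted glycoproteins such as osteopontin, and the tetraspanins CD9 and CD63, and similar cells have been found along fibrous scars in diseased liver.

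*Mc4r*, the gene disrupted in the mice of the steatotic group, had 0 counts in all 4 libraries labelled normal and 28, 22, 53 and 72 counts in the 4 libraries labelled steatotic. These counts separate the labels without overlap, but they lie with the label whose mice lack the receptor, and the cause was not tested. The groups are therefore called by their labels, on which each direction between them depends. The study's qPCR and staining of such macrophages were not analysed here. Normal Veh stands for the libraries labelled normal that received Veh, and the other groups are named likewise. Library totals ran from 58668655 to 74529462 estimated counts. At that depth 3 counts, a floor for counting error only, stand for 0.0409 to 0.0512 CPM, far under the level of each of the 10 genes. Markers of macrophages were abundant everywhere, with 10 pan-macrophage genes adding up to between 12500 and 18900 CPM. Other cells left traces: the markers of T or NK cells summed to 0.938 to 1.68 CPM under the label normal and to 16.6 to 21.7 CPM under the label steatotic, and 9 of 10 recruited monocyte markers were higher at Veh with the label steatotic (126 to 194 CPM in sum against 572 to 575 CPM), where 16.4% of all genes tested were higher. Hepatocyte markers went the other way, with sums of 130 to 166 CPM under the label normal and 58.4 to 123 CPM under the label steatotic, and 8 of 13 tested were lower at Veh with the label steatotic (14.3% of all genes). *Trf* made up the largest part of these sums and was not lower at Veh with the label steatotic. Its means were 95.5, 71.6, 111 and 50.2 CPM for normal Veh, normal CC, steatotic Veh and steatotic CC. In bulk RNA, fewer cells of a type and less RNA per cell cannot be told apart.

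The 10 genes did not move as a block. Values are given as CPM after TMM scaling, and a gene was called when the edgeR quasi-likelihood test gave a Benjamini-Hochberg adjusted p under 0.05 over all 15202 genes tested. At Veh, the libraries labelled steatotic had higher *Tyrobp*, *Spp1*, *Fabp4* and *Fabp5* and lower *Cd63*, *Gpnmb* and *Lgals3* than those labelled normal, 7 calls among 10 against 30.7% of all genes tested (16.4% higher and 14.3% lower). CC in the libraries labelled normal raised *Cd9*, *Cd63*, *Spp1* and *Gpnmb* and lowered *Trem2* and *Tyrobp*, 6 of 10 against 11.8% of all genes (6.27% higher and 5.54% lower). In the libraries labelled steatotic, CC raised 7 of the 10 and lowered *Trem2*, *Tyrobp* and *Pparg*, so that each of the 10 was called, against 22.9% of all genes (12% higher and 10.9% lower). The test of the difference between the CC responses called 6 of 10, *Cd9*, *Cd63*, *Spp1*, *Gpnmb*, *Lgals3* and *Fabp5*, each with the larger rise under the label steatotic, against 3.22% of all genes (1.95% higher and 1.27% lower). The median difference between responses was 0.50 on the log2 scale over the 10 genes and 0.0053 over all genes tested. With CC present in both, 5 of the 10 were higher and 2 lower with the label steatotic, against 28.8% of all genes called (15.9% higher and 12.9% lower). Without normal CC replicate 1, only 2 of the 10 (*Cd9* and *Gpnmb*) were called with CC under the label normal. As to the libraries themselves, 5 of the 10 genes were higher and 4 lower at Veh in both steatotic libraries than in both normal ones, against 33.5% and 34% of all genes tested. With CC this held for 6 and 4 genes (33.2% and 31.7% of all genes). Between CC and Veh the ranges did not overlap for 4 genes upward and 3 downward with the label normal (27.1% and 28% of all genes) and for 7 and 3 with the label steatotic (30.8% and 30.9%). *Spp1* and *Fabp4* had been singled out by the study from these same libraries, so they give no independent support to any direction here. All 10 genes were chosen with earlier results of these data known, so the counts above give none either.

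**Figure D1:**
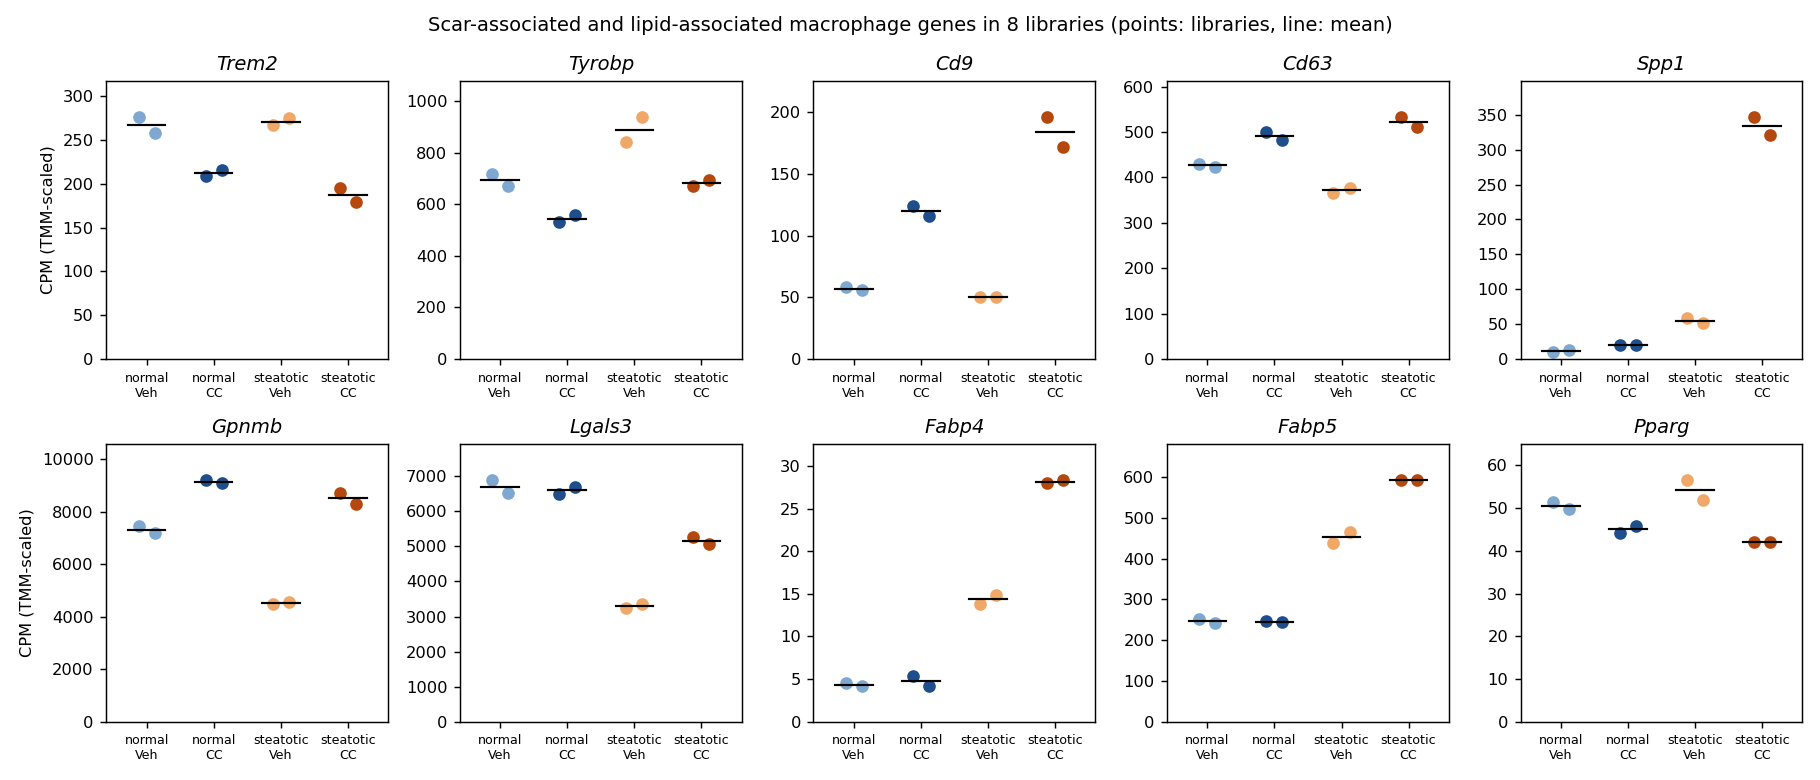
Level of each of the 10 genes in the 8 libraries, in TMM-scaled CPM on linear axes that start at 0, with a point for each library and a line at the mean of the 2 libraries in a group. *Spp1* stood at 322 and 346 CPM in the libraries labelled steatotic with CC and below 60 CPM in every other library, whereas *Trem2* and *Tyrobp* were lower with CC than with Veh under each label.

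Between genes, levels were compared as CPM per kb of the principal transcript. *Lgals3* was the highest of the 10 in each group, with group means of 4724, 4652, 2324 and 3635 CPM per kb for normal Veh, normal CC, steatotic Veh and steatotic CC. This placed it between rank 6 and rank 18 of the 55141 genes with a length. *Gpnmb* and *Tyrobp* came next in every group, at 1220 to 2469 and 966 to 1576 CPM per kb. They changed places at Veh under the label steatotic, where *Tyrobp* (1576) was above *Gpnmb* (1220). *Cd63* (335 to 471), *Fabp5* (249 to 600.4) and *Trem2* (172 to 249) formed a middle group. *Cd9* (40.8 to 149.9), *Pparg* (23.8 to 30.7) and *Fabp4* (4.84 to 31.4) stayed lower. *Spp1* covered the widest span, from 7.39 CPM per kb and ninth place with normal Veh to 222 CPM per kb and the sixth place with steatotic CC. Within a group, the library ranges of neighbours in this order overlapped only for *Fabp5* and *Trem2* with normal Veh.

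*Trem2* (ENSMUSG00000023992.14, GRCm38 chromosome 17 from 48346401 to 48354147, plus strand), the lipid receptor at the centre of the programme, fell with CC under both labels. Under the label normal it read 276 and 258 CPM with Veh and 209 and 216 CPM with CC. Under the label steatotic it read 267 and 275 CPM with Veh and 196 and 179 CPM with CC. Each CC library was thus below each Veh library of its label, whereas the Veh libraries of the 2 labels overlapped. The log2 fold change with CC was -0.33 (SE 0.0552, edgeR adjusted p = 0.00809) with the label normal and -0.53 (SE 0.0552, edgeR adjusted p = 0.000383) with the label steatotic. Between the labels at Veh it was 0.021, with a 95% interval from -0.11 to 0.15 (edgeR adjusted p = 0.82). The responses differed by -0.20 (interval -0.38 to -0.018, edgeR adjusted p = 0.298). With CC, *Trem2* was lower with the label steatotic (log2 -0.18, SE 0.0553, edgeR adjusted p = 0.0457). This call was not given by DESeq2 (adjusted p = 0.0557) nor by edgeR without normal CC replicate 1 (0.0927) or 2 (0.183), steatotic Veh replicate 1 (0.058) or 2 (0.067), or steatotic CC replicate 2 (0.201, with a log2 value of -0.12).

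*Tyrobp* (ENSMUSG00000030579.10, chromosome 7 from 30413760 to 30417585, plus strand), which encodes the DAP12 adaptor, also fell with CC but differed between the labels. Its values were 717 and 671 CPM with normal Veh, 531 and 559 CPM with normal CC, 840.4 and 938 CPM with steatotic Veh, and 673 and 695 CPM with steatotic CC. The steatotic Veh libraries were the highest of all 8, and the normal CC libraries the lowest. At Veh the log2 difference between labels was 0.36 (SE 0.0602, edgeR adjusted p = 0.00331), and with CC it was 0.33 (SE 0.0602, edgeR adjusted p = 0.00543). CC lowered *Tyrobp* under both labels, with log2 changes of -0.35 (SE 0.0602, edgeR adjusted p = 0.00946) and -0.38 (SE 0.0602, edgeR adjusted p = 0.00327). The interval of their difference ran from -0.23 to 0.17. Without replicate 1 of normal CC or of normal Veh, neither *Trem2* nor *Tyrobp* was called with CC under the label normal (edgeR adjusted p between 0.0537 and 0.0685). At Veh 7 of 10 pan-macrophage markers were higher with the label steatotic and 2 were lower (16.4% and 14.3% of all genes tested), with a median log2 difference of 0.84. The sum of these markers was lower with CC. It went from 17800 to 18400 CPM with Veh to 13500 to 13900 CPM with CC under the label normal, and from 18100 to 18900 CPM to 12500 to 13700 CPM under the label steatotic, with 8 and 7 of 10 genes lower (5.54% and 10.9% of all genes tested) and 1, *Cd68*, higher under the label steatotic. Of 12 Kupffer cell markers, 6 were lower with CC under the label normal and none higher, and 8 were lower and 1, *Marco*, higher under the label steatotic (5.54%, 6.27%, 10.9% and 12% of all genes). *Vsig4*, a complement receptor, had log2 changes of -2.26 and -2.76 under the labels normal and steatotic (edgeR adjusted p = 1.29e-05 and 1.11e-06). Natural killer cells and neutrophils also use DAP12. Neutrophil markers summed to 134 to 137 CPM with normal Veh, 150 to 151 CPM with normal CC, 251 to 260 CPM with steatotic Veh and 392 to 397 CPM with steatotic CC, nearly all of it *S100a8*, *Csf3r* and *Mmp8*, while *Ly6g*, which defines the cell, was at 0 in all libraries. The part of these markers in the results for *Trem2* and *Tyrobp* was not tested.

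Of 16 genes for TREM2 signalling, its sheddases and its ligands, 8 were higher and 1 lower at Veh with the label steatotic, against 30.7% of all genes tested called in either direction. With CC, 7 fell and 1 rose under the label steatotic (22.9% of all genes called), and 3 fell and 2 rose under the label normal (11.8%). *Syk*, the kinase that DAP12 recruits, was among those that rose under both labels. *Lgals1*, which encodes galectin-1, was higher at Veh by 1.65 (SE 0.0692, edgeR adjusted p = 3.65e-06), going from 63.5 to 198.5 CPM. *Pik3cd* (0.75) and *Inpp5d* (0.56), a lipid kinase subunit and the phosphatase SHIP1, followed, and under the label steatotic both fell with CC (-0.64 and -0.58). *Inpp5d* also fell under the label normal (-0.26, edgeR adjusted p = 0.0397). The difference between responses was called in 4 of the 16 (3.22% of all genes), all toward a lower response under the label steatotic, led by *Pik3cd* (-0.59), *Clu* (-0.50) and the kinase gene *Btk* (-0.38). *Clu*, which encodes the lipoprotein clusterin, rose with CC under the label normal by 0.68 (SE 0.0719, edgeR adjusted p = 0.00101), from 34.7 to 55.4 CPM. *Adam10*, the main sheddase of TREM2, fell with CC under both labels. Its log2 fold change was -0.42 with the label normal (edgeR adjusted p = 0.00149) and -0.40 with the label steatotic (edgeR adjusted p = 0.000862). *Apoe*, a ligand of TREM2, read means of 2980 to 3720 CPM with Veh and 2198 to 3139 CPM with CC and was called in no comparison (edgeR adjusted p 0.381 to 0.923). Its libraries differed widely within groups, with SDs of 83.1, 583, 650 and 1320 CPM for normal Veh, normal CC, steatotic Veh and steatotic CC (n = 2 each). The log2 values between 2 groups had an SE of 0.365, so moderate changes could not be called.

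Among 14 other genes whose products pair with DAP12 or its relative HCST, 9 were higher at Veh with the label steatotic (16.4% of all genes were higher). The largest differences were those of *Sirpb1a* (4.45), *Sirpb1b* (3.43) and *Sirpb1c* (3.39), signal-regulatory receptors of a multigene family whose near-identical members can share reads, so that their single values are uncertain. With CC, 5 of the 14 fell and 3 rose under the label normal (11.8% of all genes called), and 6 fell and 4 rose under the label steatotic (22.9%). *Klrk1*, which encodes the killer cell receptor NKG2D, fell with CC under both labels. Its log2 fold change was -0.66 with the label normal (SE 0.128, edgeR adjusted p = 0.0153) and -0.78 with the label steatotic (SE 0.121, edgeR adjusted p = 0.0029). It read 4.32 CPM with normal Veh and 18.0 CPM with steatotic Veh, beside the higher sum of T or NK cell markers under the label steatotic. The part of those markers was not tested.

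The promoter of *Trem2* is shown because receptor, adaptor and *Pparg* were the 3 genes that CC lowered under the label steatotic. The sequence is that of RefSeq on GRCm38.p6, the 250 bases before the gene's start at chr17:48346151-48346400 on the plus strand, written 5′ to 3′. Capitals mark matches on either strand. TGANTCA, searched for as the AP-1 site with any base at N (here A), lies 9 to 3 bases before the start. The PU.1 core GAGGAAG, here read on the other strand as CTTCCTC, lies 41 to 35 bases before it.
Trem2: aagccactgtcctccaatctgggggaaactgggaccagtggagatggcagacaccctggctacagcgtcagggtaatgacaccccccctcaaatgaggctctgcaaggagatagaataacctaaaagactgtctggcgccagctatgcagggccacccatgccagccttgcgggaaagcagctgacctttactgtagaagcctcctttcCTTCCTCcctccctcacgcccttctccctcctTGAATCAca
An AP-1 match was found in 6.75% of 32851 mouse promoters of the same length, and a PU.1 core match in 10.6%. These are matches of letters and say nothing of binding, nor does a window without a match. Promoters were given for 7 of the 10 genes. Of the other motifs searched, the EGR1 core GCGNGGG (20.3% of promoters) was found before *Lgals3* and *Pparg*. The MiT/TFE boxes CACGTG (6.02%) and TCATGTG (3.25%) and the PPAR repeat, AGGTCA repeated after 1 base (0.0335%), were found in none of the windows of these genes.

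*Cd9* (ENSMUSG00000030342.8, chromosome 6 from 125460266 to 125494791, minus strand) encodes a tetraspanin, a membrane scaffold protein used to sort scar-associated macrophages, and among the 10 genes had the second largest rise with CC under the label steatotic. It read 58.2 and 56.0 CPM with normal Veh, 124 and 116 CPM with normal CC, 50.01 and 50.2 CPM with steatotic Veh, and 196 and 172 CPM with steatotic CC. No CC library came near a Veh library, and the steatotic CC libraries were above all others. CC raised it 2.11-fold with the label normal (log2 1.08, SE 0.0678, edgeR adjusted p = 0.000109) and 3.67-fold with the label steatotic (log2 1.88, SE 0.0677, edgeR adjusted p = 3.16e-06). The second response was larger by 0.80 (SE 0.0958, edgeR adjusted p = 0.00618). At Veh *Cd9* was not called between labels (log2 -0.19, interval -0.35 to -0.029, edgeR adjusted p = 0.0757), while with CC it was higher with the label steatotic by 0.61 (SE 0.0675, edgeR adjusted p = 0.000458). The Veh difference was called with library size as the only scaling (0.0339) and without steatotic CC replicate 1 (0.0324) or 2 (0.0315). Platelets are rich in CD9. Their markers summed to 13.5 to 15.2 CPM with normal Veh, 12.9 to 13.3 CPM with normal CC, 79.9 to 82.6 CPM with steatotic Veh and 70.4 to 70.8 CPM with steatotic CC, nearly all of it *Pf4*. Their part in the results for *Cd9* was not tested.

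*Cd63* (ENSMUSG00000025351.14, chromosome 10 from 128900989 to 128912822, plus strand), a tetraspanin of late endosomes and lysosomes, moved less. It read 429.9 and 423 CPM with normal Veh, 500.4 and 482 CPM with normal CC, 366 and 377 CPM with steatotic Veh, and 532 and 512 CPM with steatotic CC. The 4 groups were ordered without overlap, lowest with steatotic Veh and highest with steatotic CC. The log2 fold change with CC was 0.20 (SE 0.0385, edgeR adjusted p = 0.0139) and 0.49 (SE 0.0385, edgeR adjusted p = 9.41e-05). The difference of 0.29 (SE 0.0544, edgeR adjusted p = 0.0363) was no longer called without robust estimation of the spread (0.0506) or when a library other than steatotic CC replicate 2 was left out (0.0709 to 0.127), and the rise under the label normal was not called without normal Veh replicate 2 (0.061) or normal CC replicate 1 (0.0911). At Veh, *Cd63* was lower with the label steatotic (log2 -0.20, SE 0.0385, edgeR adjusted p = 0.00647), and with CC the difference was 0.088 (edgeR adjusted p = 0.134). A copy of the gene, *Cd63-ps*, aligns at 98.0% identity over 858 bases and read group means of 40.8, 47.6, 35.0 and 47.6 CPM in the same order, so that reads may have been split. With its counts added, the difference between responses was 0.28 (edgeR adjusted p = 0.0366).

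Of 16 other tetraspanin genes tested, 6 were higher and 3 lower at Veh with the label steatotic, where 30.7% of all genes were called. *Tspan3* was higher by 1.33 (64.6 against 162 CPM), and *Cd82* and *Cd81* were lower (log2 -1.13 and -0.92). With CC, 3 rose and 2 fell under the label normal (11.8% of all genes called), and 3 rose and 3 fell under the label steatotic (22.9%). *Cd82*, a tetraspanin gene known as a suppressor of metastasis, rose under the label steatotic by 0.83 (SE 0.05, edgeR adjusted p = 2.63e-05), from 40.8 to 72.2 CPM, more than under the label normal (difference 0.60, SE 0.0705, edgeR adjusted p = 0.00603). *Tspan4* fell there by 0.88 in log2 terms, and more than under the label normal (difference -0.55, edgeR adjusted p = 0.0165).

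*Spp1* (ENSMUSG00000029304.14, chromosome 5 from 104435118 to 104441050, plus strand) encodes osteopontin, a secreted phosphoprotein that binds integrins and CD44, and had the widest range of the 10, 30.2-fold between its lowest and highest group means. It read 9.69 and 12.6 CPM with normal Veh, 19.8 and 19.9 CPM with normal CC, 58.1 and 51.2 CPM with steatotic Veh, and 346 and 322 CPM with steatotic CC. No groups overlapped, and each steatotic library was above each normal library. With the label steatotic, CC raised it 6.11-fold (log2 2.61, SE 0.121, edgeR adjusted p = 3.22e-05), more than with the label normal (log2 0.84, SE 0.126, edgeR adjusted p = 0.00884) by 1.78 (SE 0.174, edgeR adjusted p = 0.00573). The smaller rise was not called without either of the normal CC libraries (edgeR adjusted p = 0.0552 and 0.0539), although its size stayed at 0.84 and 0.83. Between the labels, *Spp1* was 4.91-fold higher at Veh (edgeR adjusted p = 4.13e-05) and 16.8-fold higher with CC (edgeR adjusted p = 5.11e-06).

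Cholangiocytes and stellate cells also make osteopontin. The 10 cholangiocyte markers summed to 27.1 to 33.6 CPM with normal Veh, 34.1 to 37.1 CPM with normal CC, 42.2 to 47.7 CPM with steatotic Veh and 42.3 to 52.9 CPM with steatotic CC. The last 2 ranges overlap. At Veh 3 of the 8 tested were higher with the label steatotic (16.4% of all genes) and none was lower: *Krt7* by a log2 of 1.60 (edgeR adjusted p = 0.00479), *Krt8* by 0.53 (edgeR adjusted p = 0.0438) and *Krt18* by 0.51 (edgeR adjusted p = 0.014), all keratins of simple epithelia. *Krt19*, a keratin that defines bile duct cells, had group means of 3.37, 3.56, 3.62 and 4.41 CPM and was not called. With CC against Veh none of the 8 was called under either label. The 12 markers of stellate cells or fibroblasts summed to 4.45 to 4.66, 7.64 to 9.58, 19.4 to 22.6 and 112 to 140 CPM in the same order, so that they were ordered as *Spp1* was. *Dcn*, the decorin gene, had means of 2.05, 6.35, 19.2 and 124 CPM and made up nearly all of the sum under the label steatotic, while *Acta2*, smooth muscle actin, had means of 1.27, 1.68, 0.947 and 1.46 CPM. The other markers of that list, the collagen genes *Col1a1*, *Col1a2* and *Col3a1* among them, had group means of at most 0.399 CPM (*Pdgfrb* with normal Veh), with *Ngfr* at 0 in all libraries, and only *Dcn* and *Acta2* passed the filter. The part of cholangiocytes and of *Dcn*-positive cells in the results for *Spp1* was not tested.

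The promoter of *Spp1* is shown because this gene changed the most. It is the first of the 2 RefSeq starts, at chr5:104434861-104435110 of GRCm38.p6 on the plus strand, 250 bases written 5′ to 3′, with the PU.1 core GAGGAAG in capitals, 113 to 107 bases before the start. The second start gave no match to any motif searched.
Spp1: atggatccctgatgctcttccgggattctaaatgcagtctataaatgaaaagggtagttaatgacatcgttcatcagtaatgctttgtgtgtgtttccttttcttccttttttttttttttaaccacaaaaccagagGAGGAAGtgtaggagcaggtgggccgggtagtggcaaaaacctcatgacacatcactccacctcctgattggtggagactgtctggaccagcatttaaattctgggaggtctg
A PU.1 core match was also found before *Cd63*, and no motif searched was found before *Cd9* or *Gpnmb*.

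Of 9 osteopontin receptor genes tested, mostly integrin chains, 6 were higher at Veh with the label steatotic, where 16.4% of all genes were higher. Among those with a mean above 5 CPM, the largest differences were those of *Itga4* (1.84, from 33.3 to 119 CPM), *Itgb5* (0.97, from 124.5 to 243 CPM) and *Itga9* (0.59). *Itgb3*, under that level, differed by 1.27 (2.61 against 6.28 CPM). With CC, 5 fell and 1 rose under the label steatotic (22.9% of all genes called), and 3 fell and 1 rose under the label normal (11.8%). *Itgb5* fell in both, by 0.74 and 1.27 in log2 terms, and more under the label steatotic (difference -0.53, SE 0.0753, edgeR adjusted p = 0.0113). *Itga5* was the gene that rose, from 384 to 499.8 CPM and from 375 to 541 CPM. *Cd44* read group means of 538, 526, 487 and 573 CPM and was called in no comparison (edgeR adjusted p 0.21 to 0.908).

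*Gpnmb* (ENSMUSG00000029816.10, chromosome 6 from 49036546 to 49070929, plus strand), a transmembrane glycoprotein of lysosomes that is shed from the cell, was the highest of the 10 in CPM without length. It read 7435 and 7177 CPM with normal Veh, 9205 and 9073 CPM with normal CC, 4466 and 4561 CPM with steatotic Veh, and 8709 and 8293 CPM with steatotic CC. The steatotic Veh libraries lay well below the rest, and CC brought the steatotic libraries close to, but still below, the normal CC libraries. At Veh the level with the label steatotic was 0.618 of that with the label normal (log2 -0.69, SE 0.0339, edgeR adjusted p = 6.51e-06). CC raised *Gpnmb* 1.25-fold with the label normal (edgeR adjusted p = 0.000948) and 1.88-fold with the label steatotic (edgeR adjusted p = 3.16e-06), a difference of 0.59 (SE 0.048, edgeR adjusted p = 0.00182). With CC the labels differed by -0.10 (interval -0.18 to -0.025, edgeR adjusted p = 0.0553), a value that was called with library size as the only scaling (0.0234) and without normal Veh replicate 1 (0.0469) or 2 (0.0482) or steatotic CC replicate 1 (0.0344).

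*Lgals3* (ENSMUSG00000050335.17, chromosome 14 from 47367751 to 47386160, plus strand) encodes galectin-3, a lectin that gathers on damaged lysosomes and is also secreted. It read 6892 and 6514 CPM with normal Veh, 6497 and 6704 CPM with normal CC, 3243 and 3352 CPM with steatotic Veh, and 5260 and 5055 CPM with steatotic CC. Normal Veh and normal CC overlapped, and the steatotic Veh libraries were again the lowest. At Veh the level with the label steatotic was 0.492 of that with the label normal (log2 -1.02, SE 0.0391, edgeR adjusted p = 2.12e-06). CC raised it 1.56-fold with the label steatotic (edgeR adjusted p = 2.63e-05), whereas with the label normal the log2 fold change was -0.022 (interval -0.11 to 0.069, edgeR adjusted p = 0.789). The difference between these was 0.67 (SE 0.0552, edgeR adjusted p = 0.00185). With CC, *Lgals3* was still lower with the label steatotic (log2 -0.36, SE 0.0391, edgeR adjusted p = 0.000454). Of the 10 genes, *Gpnmb* was the nearest to *Lgals3* in the shape of the group means, and *Lgals3* the nearest to *Gpnmb* (root mean square distance 0.212 log2 units after centring). Other pairs of the 10 were closer.

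Of 6 other galectin genes tested, with *Lgals3bp*, the gene of a galectin-3 ligand, counted among them, 2 were higher at Veh with the label steatotic, *Lgals1* (1.65) and *Lgals3bp* (0.24, SE 0.0299, edgeR adjusted p = 0.000691), a share close to the 30.7% of all genes called. *Lgals3bp* fell with CC under both labels, by 0.20 and 0.36 in log2 terms. *Lgals9* read group means of 478, 456, 469 and 466 CPM. The MiT/TFE family holds transcription factors of lysosomal genes, with *Gpnmb* as a known target, and its 4 genes were tested. *Tfeb* was lower at Veh with the label steatotic (log2 -0.44, SE 0.0651, edgeR adjusted p = 0.00179), and *Mitf* rose with CC under that label by 0.16 (SE 0.0448, edgeR adjusted p = 0.0391), from 104 to 116 CPM. Each was the only 1 of the 4 called in its contrast (25%), a share close to that of all genes (30.7% and 22.9%).

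*Fabp4* (ENSMUSG00000062515.3, chromosome 3 from 10204088 to 10208576, minus strand) and *Fabp5* (ENSMUSG00000027533.10, chromosome 3 from 10012548 to 10016607, plus strand) encode cytosolic carriers of fatty acids. *Fabp4* read 4.54 and 4.14 CPM with normal Veh, 5.32 and 4.18 CPM with normal CC, 13.8 and 14.9 CPM with steatotic Veh, and 28 and 28.4 CPM with steatotic CC. The normal groups overlapped, and each steatotic library was above each normal library. At Veh it was 3.31-fold higher with the label steatotic (edgeR adjusted p = 5.35e-05) and with CC 5.93-fold (edgeR adjusted p = 9.36e-06). CC raised it 1.96-fold with the label steatotic (log2 0.97, SE 0.124, edgeR adjusted p = 0.00114), and with the label normal the log2 fold change was 0.13 (interval -0.17 to 0.43, edgeR adjusted p = 0.609). The difference of 0.84 (interval 0.42 to 1.26) had an edgeR adjusted p of 0.0556 and a DESeq2 adjusted p of 0.00938, and without normal CC replicate 1 the edgeR value was 0.033. Adipocytes and endothelial cells are the textbook sources of *Fabp4*. The 7 adipocyte markers summed to 0.53 to 0.856 CPM with normal Veh, 0.972 to 1.68 CPM with normal CC, 0.109 to 0.236 CPM with steatotic Veh and 0.573 to 0.684 CPM with steatotic CC, with *Adipoq*, *Cidec* and *Lep* at 0 in every library. Of the 7 only *Slc2a4*, a glucose transporter, passed the filter, and it was lower at Veh with the label steatotic (log2 -1.97, edgeR adjusted p = 0.0334). Endothelial markers summed to 184 to 195 CPM with normal Veh, 225 CPM with normal CC, 318 to 332 CPM with steatotic Veh and 293 to 312 CPM with steatotic CC. Of the 10 tested, 5 were higher and 1 lower at Veh with the label steatotic (16.4% and 14.3% of all genes). CC raised 4 and lowered 1 under that label (12% and 10.9%) and raised 2 under the label normal (6.27%). The 1 lowered was *Pecam1*, from 95.8 to 38.8 CPM. The part of adipocytes and endothelial cells in the results for *Fabp4* was not tested.

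*Fabp5* stood far higher, at 252 and 243.5 CPM with normal Veh, 248 and 244 CPM with normal CC, 439.6 and 466 CPM with steatotic Veh, and 592 and 593 CPM with steatotic CC. As for *Fabp4*, the normal groups overlapped and both CC libraries were above both Veh libraries under the label steatotic. The log2 difference between labels was 0.87 at Veh (SE 0.0402, edgeR adjusted p = 5.08e-06) and 1.27 with CC (SE 0.0402, edgeR adjusted p = 1.25e-06). CC changed *Fabp5* by 0.39 with the label steatotic (SE 0.0401, edgeR adjusted p = 0.00037), and with the label normal the value was -0.012 (interval -0.11 to 0.082, edgeR adjusted p = 0.901). The difference was 0.40 (SE 0.0568, edgeR adjusted p = 0.0113, or 0.0505 without normal CC replicate 2).

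The counts of *Fabp5* are uncertain because 5 annotated copies align to it at 93.6% identity or more. Together the copies read means of 2.34 ± 0.611, 2.06 ± 0.0962, 90.6 ± 5.95 and 117 ± 7.87 CPM (SD, n = 2 each) for normal Veh, normal CC, steatotic Veh and steatotic CC, nearly all of it from the processed pseudogene *Gm6166*, which aligns at 98.3% identity over 409 bases. Whether these reads came from *Fabp5* or from the pseudogene cannot be told from the counts. With the copies added, *Fabp5* read 250.3 ± 5.71, 248 ± 3.07, 543 ± 24.3 and 709.9 ± 7 CPM (SD, n = 2 each). The log2 difference between labels at Veh became 1.12, the CC response under the label steatotic stayed at 0.39, and the difference between responses at 0.40 (edgeR adjusted p = 0.012).

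*Pparg* (ENSMUSG00000000440.12, chromosome 6 from 115360951 to 115490399, plus strand) encodes a nuclear receptor for fatty acids that controls *Fabp4* in fat cells and macrophages. It read 51.4 and 49.8 CPM with normal Veh, 44.2 and 45.9 CPM with normal CC, 56.6 and 51.8 CPM with steatotic Veh, and 41.97 and 41.98 CPM with steatotic CC. Both CC groups were below both Veh groups. The decrease with CC was called with the label steatotic (log2 -0.37, SE 0.061, edgeR adjusted p = 0.00393). With the label normal it was -0.17 (interval -0.31 to -0.026, edgeR adjusted p = 0.133), and the difference between responses was -0.20 (interval -0.40 to 0.00099, edgeR adjusted p = 0.354). *Pparg* was not called between labels, either at Veh (0.099, interval -0.043 to 0.24) or with CC (-0.10, edgeR adjusted p = 0.269). Of the 10 genes, *Trem2* was the nearest to *Pparg* in the shape of the group means, at a distance of 0.0913 log2 units.

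Partners and textbook targets of PPARγ went both ways. Of 19 genes tested from a list of 22, 5 were higher and 4 lower at Veh with the label steatotic (30.7% of all genes called). CC raised 3 and lowered 3 under the label normal (11.8% of all genes), and raised 4 and lowered 7 under the label steatotic (22.9%). *Angptl4*, a secreted inhibitor of lipoprotein lipase and a target of PPARs, fell under both labels by 1.13 and 1.68 in log2 terms, from 29.8 to 13.6 CPM and from 32.3 to 10.1 CPM. *Abcg1*, a cholesterol exporter driven mainly by liver X receptors, rose under both, by 0.96 (SE 0.0383, edgeR adjusted p = 2.71e-05) and 0.83 (SE 0.0383, edgeR adjusted p = 7.68e-06). *Lpl*, lipoprotein lipase, and *Acadl*, an enzyme of fatty acid oxidation, were lower at Veh with the label steatotic (-0.74 and -0.69). *Cd36*, a scavenger receptor for fatty acids and oxidised lipoproteins, was higher with the label steatotic than with the label normal. The difference was 0.60 at Veh (edgeR adjusted p = 0.00126) and 0.99 with CC (SE 0.0759, edgeR adjusted p = 0.00014). CC against Veh changed *Cd36* by 0.43 under the label steatotic (edgeR adjusted p = 0.00699) and by 0.039 under the label normal (edgeR adjusted p = 0.814). *Ppard* was also higher at Veh with the label steatotic, with a wide error (0.97, SE 0.27, edgeR adjusted p = 0.0436).

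**Figure D2:**
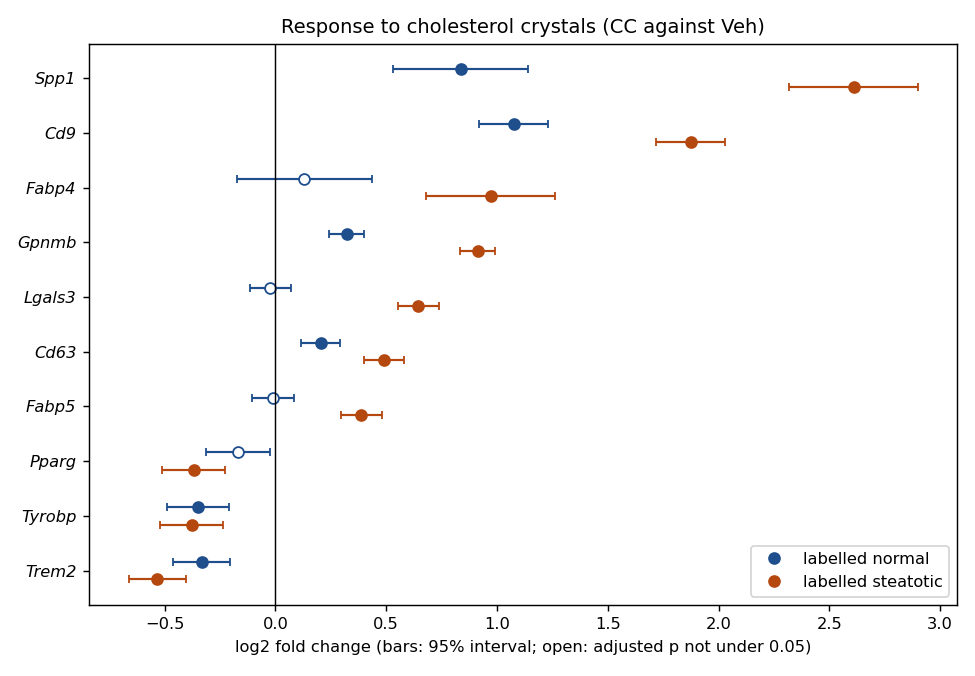
Log2 fold change of CC against Veh for the 10 genes with the label normal (blue) and the label steatotic (orange), with 95% intervals as bars and open points where the edgeR adjusted p was not under 0.05. The orange points lie at or above 0.39 for 7 genes and between -0.53 and -0.37 for *Pparg*, *Tyrobp* and *Trem2*. The intervals of the 2 labels do not meet for *Spp1*, *Cd9*, *Fabp4*, *Gpnmb*, *Lgals3*, *Cd63* and *Fabp5*, of which *Fabp4* did not pass the test of the difference.

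**Figure D3:**
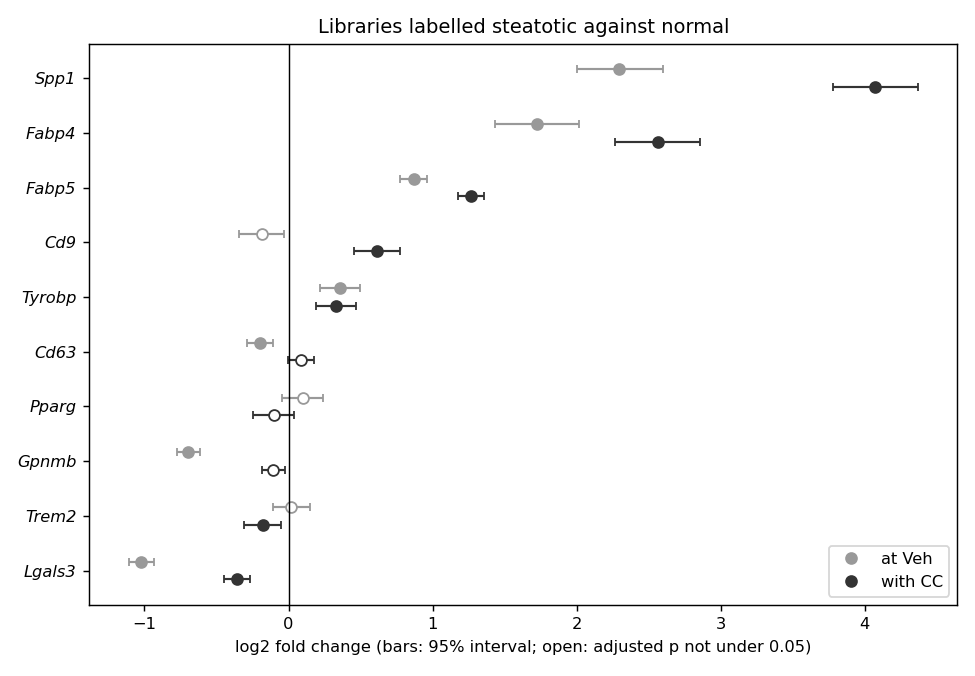
Log2 difference of the libraries labelled steatotic against those labelled normal for the 10 genes at Veh (grey) and with CC (black), with 95% intervals as bars and open points where the edgeR adjusted p was not under 0.05. *Spp1*, *Fabp4*, *Fabp5* and *Tyrobp* lie to the right of 0 in both, *Lgals3* and *Gpnmb* to the left in both, with *Gpnmb* not called with CC, and *Cd9* is on the right with CC (0.61).

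A further 31 genes of lipid-associated macrophages were listed for comparison. At Veh 17 of them were lower and 8 higher with the label steatotic, with a median log2 difference of -0.15 against -0.0096 over all genes tested (30.7% called). CC raised 16 and lowered 2 under the label normal (median 0.18, 11.8% of all genes called), and raised 21 and lowered 4 under the label steatotic (median 0.43, against 0 over all genes tested, of which 22.9% were called). The difference between responses was called in 10 of the 31 (3.22% of all genes), with a larger response under the label steatotic in 9 of them. *Mmp12*, macrophage elastase, had the largest, with group means of 1246, 3854, 240.1 and 2415 CPM and CC responses in log2 of 1.63 (SE 0.0856, edgeR adjusted p = 0.000152) and 3.33 (SE 0.0858, edgeR adjusted p = 4.26e-06), a difference of 1.70 (SE 0.121, edgeR adjusted p = 0.0024). *Itgax*, the CD11c integrin chain, was next (difference 1.59, SE 0.16, edgeR adjusted p = 0.00497), followed by *Atp6v0d2*, a subunit of the lysosomal proton pump (0.76). *Il1rn*, the interleukin-1 receptor antagonist, rose under both labels by 1.55 and 1.70, with a difference of 0.15 (edgeR adjusted p = 0.415). *Kcnn4*, a potassium channel gene, and *Vegfa*, a growth factor gene of blood vessels, were higher at Veh with the label steatotic by 4.33 and 2.42 log2 units. *Itgax*, *Vegfa*, *Kcnn4* and *Atp6v0d2* had been named by the study from these libraries and give no independent support. The whole list was chosen with earlier results of these data known, so its counts give none either.

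**Figure D4:**
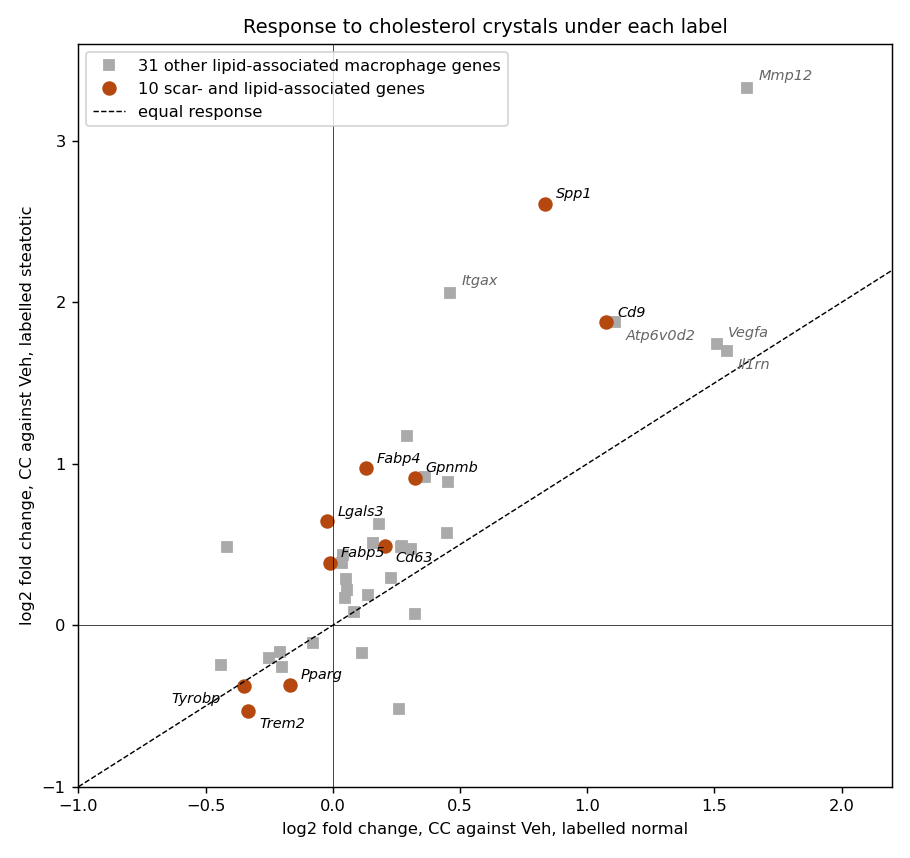
Log2 fold change with CC under the label normal (x axis) and under the label steatotic (y axis) for the 10 genes (orange circles) and the 31 further genes of lipid-associated macrophages (grey squares), with a dashed line where both responses are equal. *Spp1*, *Cd9*, *Fabp4*, *Gpnmb*, *Lgals3*, *Cd63* and *Fabp5* lie above the line, and *Mmp12* has the highest value on the y axis (3.33).

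Genes with group means of the most similar shape were sought among 9984 genes over the 4 group means, for the 5 of the 10 genes that spanned over 2-fold and had a mean above 20 CPM. The closest to *Cd9* was *Atp6v0d2*, at a distance of 0.0304 log2 units (74.0, 160.3, 68.4 and 251 CPM for normal Veh, normal CC, steatotic Veh and steatotic CC), ahead of *Il7r* (0.103) and *Anpep* (0.109). *Gpnmb* was followed by *Pex26* (0.0373), *Clec4d* (0.0504) and *Cplx2* (0.0506), of which *Clec4d*, a lectin receptor gene of myeloid cells, read 748, 946, 489 and 835 CPM. *Lgals3* was followed by *Dhrs7* (0.0457), *Mpzl1* (0.0624) and *Coq7* (0.0675), and *Fabp5* by *CT010467.1* (0.0501), *Rnd3* (0.0571) and *Gm47283* (0.0573). *Spp1* had no close match. Its nearest genes were *Lipn* (0.322), *Alcam* (0.364) and *Dcn* (0.387), and *Lipn*, a lipase gene, went from 0.972 CPM with normal Veh to 32.1 CPM with steatotic CC.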

How the data were processed

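The deposited table holds estimated counts that the authors made from 150 bp paired-end poly(A) reads by trimming with fastp, alignment to mm10 with HISAT2 and quantification with StringTie, whose versions are not given in the sources used here. It has 55401 genes and 1 column for each of 8 libraries, and its values are whole and not normalized. The libraries were made with a directional kit. The way coverage was turned into counts, and whether strand was used in counting, is not stated. Groups came from the sample titles.

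Counts were used as deposited, with library totals over all genes. A gene was kept if any library reached 0.5 CPM. The 15202 genes kept, of 28711 with any count, entered 1 edgeR 4.0.16 model in R 4.3.3 with 4 group means (TMM, glmQLFit with robust estimation, glmQLFTest, prior count 0.125), with Benjamini-Hochberg adjustment over all of them and a threshold of 0.05. The common biological coefficient of variation in this fit was 0.171. Across genes, log2 CPM correlated at 0.979 to 0.982 (Pearson) between libraries of the same group. TMM factors ran from 0.981 to 1.03.

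The 10 genes and the gene lists were chosen with earlier results of these data known. In each list, up to 3 called genes above 5 CPM with the largest change were named for the difference at Veh and for the difference between responses, and up to 2 for the other contrasts. *Syk*, *Apoe*, *Itga5*, *Itgb3*, *Cd44*, *Lgals9* and the single marker genes were named after their values were seen. Similar patterns were ranked by the root mean square distance of centred log2 group means. Coordinates and lengths are from GENCODE M21 (GRCm38), and promoters from RefSeq (GRCm38.p6). Copies were found with BLAST 2.17.0 at 85% identity or more over at least 200 bases.

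Alternatives were DESeq2 1.42.0, RLE scaling, scaling by library size, stricter and looser filters, no robust estimation, the replicate number as a block, 4 libraries alone, counts divided by 4, other thresholds, a prior count of 4, each library left out, and, chosen after seeing the data, copies added to their gene. The steps were tested on simulated data. Figures were drawn with matplotlib 3.10.9.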

Additional observations from a re-analysis of the deposited data

Results flagged for a closer look

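The response to CC differed between the labels, by the test of the difference itself in edgeR, for 6 of the 10 genes, each with the larger rise under the label steatotic, against 3.22% of all genes tested (1.95% in that direction). On the log2 scale the differences were 1.78 for *Spp1*, 0.802 for *Cd9*, 0.668 for *Lgals3*, 0.591 for *Gpnmb*, 0.401 for *Fabp5* and 0.286 for *Cd63*. Their adjusted p-values ran from 0.00182 for *Gpnmb* to 0.0363 for *Cd63*. In *Lgals3* and *Fabp5* the difference came with overlapping libraries between CC and Veh under the label normal. In *Gpnmb*, *Lgals3* and *Cd63* the larger rise started from a Veh level that was lower with the label steatotic than with the label normal. In *Spp1* and *Fabp5* it started from a higher one. Groups of 2 libraries were too small for a search for single libraries that stand apart.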

How the results depend on the processing

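Of 990 values of single genes recomputed under the alternatives, 937 kept their direction and their side of the threshold, 27 lost a call, 14 gained one and 12 changed sign. The number of the 10 genes called stayed within 1.5 times the main number except in 2 settings. With a log2 fold change over 1 also required, it was 3 for steatotic against normal at Veh, 1 for CC with the label normal, 2 for CC with the label steatotic, 1 for the difference between responses and 3 for steatotic against normal with CC, because that setting asks for a larger change. With single libraries left out, it ranged from 2 to 6 for CC with the label normal, and the lowest number came without normal CC replicate 1. In the other contrasts leaving out a library gave 7 to 8, 10, 4 to 6 and 6 to 8 genes. A group then has 1 library, which is assumed to vary like the others.

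Over all genes tested, the calls moved by more than 1.5 times as follows. For the difference between responses, 490 genes became 737 in DESeq2, 777 at an adjusted p under 0.1, and 307, 314 and 298 without normal CC replicate 1, normal CC replicate 2 or steatotic Veh replicate 2. For CC with the label normal, 1795 became 1083, 1020 and 1095 without normal Veh replicate 1, normal CC replicate 1 or normal CC replicate 2. A log2 fold change over 1 left 1386 of 4665, 277 of 1795, 767 of 3474, 138 of 490 and 1278 of 4384 genes in the same order of contrasts.

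Every change of sign was in a value that had not been called. *Trem2* at Veh between labels was -0.0251 with library size only, and -0.029 to 0.0666 with a library left out. With CC under the label normal, *Lgals3* ran from -0.0566 to 0.0264, *Fabp4* from -0.0544 to 0.294 and *Fabp5* from -0.0319 to 0.0217 with a library left out, and *Fabp5* was 5.49e-05 with a filter of 1 CPM in at least 4 libraries. The difference between responses of *Tyrobp* ran from -0.112 to 0.053. The cause was not tested.

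The replicate numbers 1 and 2 did not pair the libraries. The differences between replicate 1 and 2 correlated at -0.0041 to 0.0603 over 6 pairs of groups, so the libraries share only a number. With the replicate number as a block, 7, 6, 10, 5 and 6 of the 10 genes were called in the same order of contrasts, without the calls of *Cd63* in the difference between responses (adjusted p = 0.0551) and of *Trem2* with CC (0.0601). Adding the copies to their gene, an alternative chosen after seeing the data, changed none of the calls of the 10 genes. If a fragment stands for about 4 counts, the depth is overstated. Counts divided by 4 gained the call of *Fabp4* in the difference between responses (edgeR adjusted p = 0.0499).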
